A study of Homo sapiens with 4 samples.

Results

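The subject here is 10 genes of the FOXO branch of PI3 kinase signalling: the transcription factors FOXO1, FOXO3 and FOXO4, and 7 genes that FOXO factors are known to switch on when cells stop growing, namely TXNIP, CITED2, SESN1, SESN3, CCNG2, PIK3IP1 and SOD2. They were chosen by name, with earlier results of these data known. Each was read from a probe set that the platform annotation assigns to exactly 1 gene, and all 10 were found among the 18377 genes that have such a probe set. Every one of the 10 had a single probe set of this kind.

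OPM2, an established human multiple myeloma line, was cultured with the solvent DMSO (control, 2 samples) or with VS-5584, also called SB2343, a small molecule that blocks PI3 kinase and mTOR (2 samples). The dose was 123 nM by the sample labels and 125 nM by the series' design text. All 4 samples were harvested at 24 h, and each gave 1 one-colour array made from total RNA. Sample titles describe biological replicates but do not say whether these were separate cultures or passages, so p-values measure the spread between these samples, and all 4 come from 1 cell line.

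In growing cells, PI3 kinase activates the kinase AKT, which phosphorylates FOXO proteins; 14-3-3 proteins then hold them in the cytoplasm. When that signal drops, FOXO proteins enter the nucleus and bind DNA at a short core sequence, GTAAACA or close variants of it. The genes they switch on slow the cell cycle, restrain PI3 kinase and mTOR, limit glucose uptake and detoxify oxygen radicals. This control acts mainly on the FOXO proteins and where they sit in the cell, which RNA arrays do not measure.

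Median intensities over all probe sets ran from 49.3 to 52.5 on the 4 arrays. VS-5584 replicate 2 stood apart from the other arrays. Its upper quartile was 106, against 115 to 118 elsewhere, but its median (52.5) and lower quartile (31.9) were the highest of the 4 arrays. Among the genes bright enough to be tested, its median gene lay -0.14 from the control mean on the log2 scale. For VS-5584 replicate 1 that value was -0.0022. All 9 plasma cell markers examined, such as IRF4, PRDM1 and XBP1, exceeded the brightness filter of 48.9, with intensities from 92.1 to 2481. The 3 T cell and 3 monocyte markers lay below it, at 24.6 to 41.6. Of the remaining markers, HBB of red cells (123 to 159) and COL1A1 of fibroblasts (77.9 to 84.8) lay above the filter. COL1A2 of fibroblasts (48.5 to 55.3) and PAX5 of B cells (46.2 to 53.3) exceeded it by their mean, but not on every array. MS4A1, CD22 and COL3A1 lay below it.

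TXNIP stood at clearly higher intensity in treated cells, CITED2 and CCNG2 at slightly higher intensity, and SOD2 at lower intensity. On the probe sets used, the 3 FOXO genes overlapped between the groups, but those of FOXO3 and FOXO4 were dim. A brighter probe set shared by FOXO3 and FOXO3B, not used here, was higher on both treated arrays. Across all 10 genes, 6 were higher on average in treated cells, against 47.5% of all 18377 genes. In 5 of them (TXNIP, CITED2, SESN1, CCNG2 and PIK3IP1) both treated arrays exceeded both controls, a pattern seen in 17.6% of all genes. SOD2 was the 1 gene lower on both treated arrays, as were 21.4% of all genes. The other 4 (FOXO1, FOXO3, FOXO4 and SESN3) overlapped. With limma and Benjamini-Hochberg adjustment over 11026 genes, 0 of the 7 members bright enough to be tested passed an adjusted p of 0.05, and the background was 0% of genes. At an unadjusted p under 0.05, 1149 genes or 10.4% of those tested were counted, 1.49% higher and 8.93% lower; among the members these were TXNIP (higher) and SOD2 (lower). An unmoderated test likewise called 0 genes. In bulk RNA, fewer cells in a given state and less RNA per cell cannot be told apart.

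**Figure D1:**
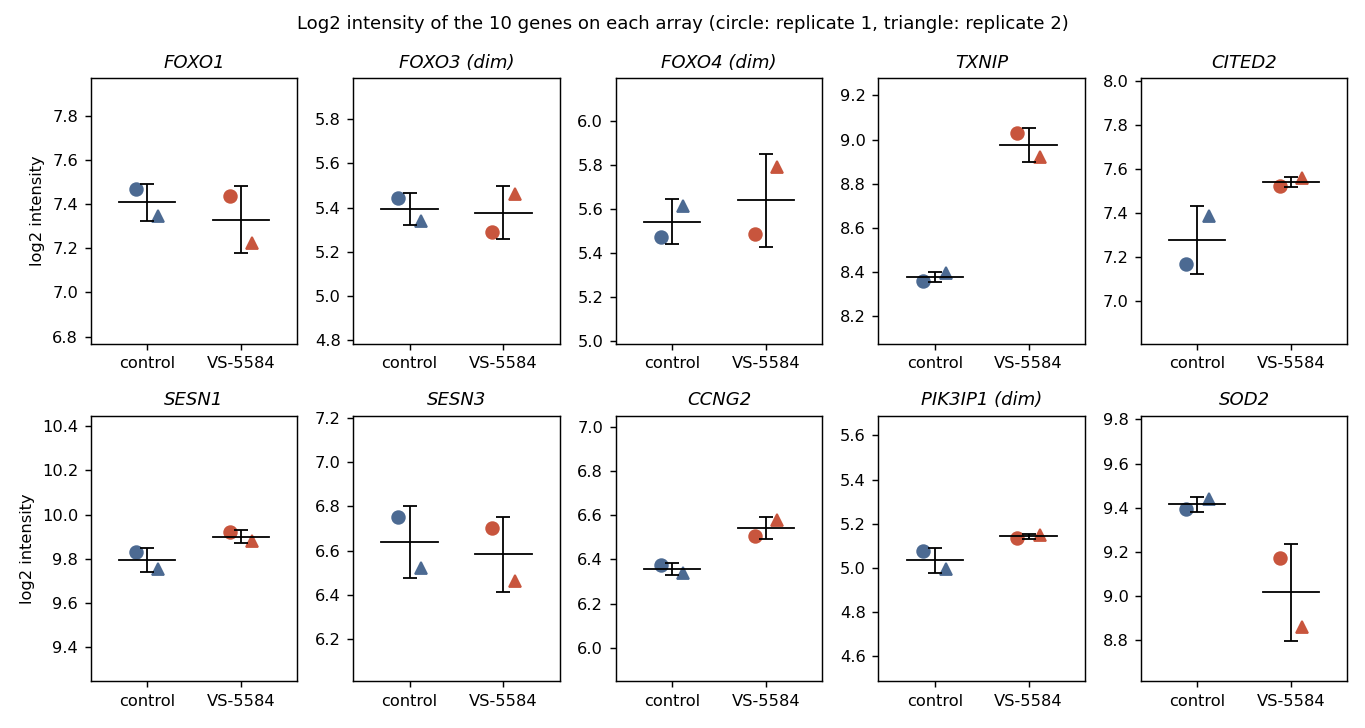
Log2 intensity of the 10 genes on the 2 control arrays (blue) and 2 VS-5584 arrays (red), 1 panel per gene with each vertical axis spanning the same range in log2 units; circles are replicate 1, triangles replicate 2, lines the group means and bars the SD (n = 2). TXNIP sits near 8.38 in control and 8.98 in treated cells, SOD2 near 9.42 and 9.02, and the FOXO genes overlap; "dim" marks genes below the brightness filter.

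TXNIP encodes an arrestin-fold protein that binds thioredoxin and restrains glucose uptake. Its promoter is shown because TXNIP had the largest difference among the 10 genes and the window carried 2 of the motifs searched, the FOXO core GTAAACA and the hexamer CACGAG, a variant of the E-box through which glucose-sensing factors such as MondoA (MLXIP) act. The sequence is the 250 bases upstream of the TXNIP start whose window held both. It is from RefSeq, GRCh38.p14, chr1:145996580-145996829, minus strand, written 5′ to 3′ along the gene, with motif matches in capitals.
TXNIP: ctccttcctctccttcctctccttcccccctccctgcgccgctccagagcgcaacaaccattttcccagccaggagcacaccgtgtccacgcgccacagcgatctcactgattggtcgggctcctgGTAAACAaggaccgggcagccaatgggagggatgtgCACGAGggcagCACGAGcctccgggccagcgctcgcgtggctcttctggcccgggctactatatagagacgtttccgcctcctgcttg
The first base of GTAAACA lay 124 bases before the start, and those of the 2 CACGAG matches 88 and 77 bases before it.

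TXNIP was measured at intensities of 329 and 336 in control replicates 1 and 2 and 523 and 485 in VS-5584 replicates 1 and 2. Both treated arrays lay well above both controls, and the controls differed from each other by 0.033 on the log2 scale. Mean log2 intensity was 8.38 ± 0.023 (SD, n = 2) in control cells against 8.98 ± 0.077 (SD, n = 2) after VS-5584, a log2 difference of 0.60 ± 0.13 (SE), or 1.51-fold, with a 95% interval of 0.30 to 0.89. The difference ranked 29th from the highest among 11026 genes, and 16th on VS-5584 replicate 1 and 86th on VS-5584 replicate 2 taken singly. It did not pass the test (limma adjusted p = 0.254). TXNIP passed in 3 alternatives. These were cyclic loess normalization (limma adjusted p = 0.0413, log2 difference 0.74), the replicate number as a block (limma adjusted p = 0.00815) and leaving out VS-5584 replicate 1 (limma adjusted p = 0.0106, log2 difference 0.54). In that last fit the treated group is 1 array, which is assumed to vary like the controls, and 2636 of 11026 genes passed. Apart from the fit with the block, the adjusted p ran from 0.0413 to 0.766 over the alternatives with all 4 arrays.

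Genes with a pattern over the 4 arrays like that of TXNIP were sought by Euclidean distance between log2 profiles, each centred on its own mean. Among the 11025 other genes tested, the nearest were YPEL5 (distance 0.066), OPTN (0.12) and YPEL3 (0.12). Their log2 differences between treated and control cells were 0.58, 0.53 and 0.59. This likeness is a description over 4 arrays.

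CITED2 encodes a coactivator-binding protein that limits HIF1 activity. Intensities were 144 and 167 in the controls and 184 and 188 in the treated samples. Both treated values were above both controls, but the controls lay further apart than the treated arrays did. The log2 difference was 0.26 ± 0.14 (SE), 1.199-fold, with a 95% interval of -0.049 to 0.57, and did not pass (limma adjusted p = 0.541).

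CCNG2, cyclin G2, is an atypical cyclin that is abundant in resting cells and opposes cell-cycle progress. It stood at 83.0 and 80.9 in control and 90.9 and 95.5 in treated cells. The groups did not overlap, and the controls differed by only 0.038 on the log2 scale. Its log2 difference of 0.19 ± 0.13 (SE), 1.14-fold, had a 95% interval of -0.11 to 0.48 and did not pass either (limma adjusted p = 0.626).

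Each of these 2 genes had a RefSeq promoter window (250 bases before to 50 after an annotated start) with CACGTG, the canonical E-box, shown here with 10 bases on each side and the match in capitals. The CITED2 stretch is chr6:139374786-139374811, minus strand, and the CCNG2 stretch chr4:77157167-77157192, plus strand, both GRCh38.p14 and written along the gene.
CITED2: gcctctgcagCACGTGccgcgggcgg
CCNG2: cgcggggagtCACGTGccccgccccc
The matches began 153 and 30 bases before the start.

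SESN1 and SESN3 encode sestrins, stress-induced proteins that restrain mTOR complex 1. SESN1 was measured at 912 and 864 in control and 969.6 and 942 in treated cells. The treated values lay just above the controls, by 0.11 ± 0.13 (log2, SE), 1.08-fold (limma adjusted p = 0.780). SESN3 was at 108 and 91.96 in control and 104 and 88.2 in treated cells. Its groups overlapped, with replicate 1 brighter than replicate 2 in each group, and its log2 difference of -0.055 ± 0.15 (SE) had a 95% interval of -0.39 to 0.28 (limma adjusted p = 0.904). That difference was 0.064 on VS-5584 replicate 1 and -0.17 on VS-5584 replicate 2, and it turned to 0.010 after cyclic loess.

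PIK3IP1 encodes a membrane protein that binds and inhibits the PI3 kinase catalytic subunit. It was dim, at 33.7 and 31.9 in control and 35.1 and 35.5 in treated cells, and so was left out of the test. The treated values lay above the controls by 0.11 on the log2 scale, 1.08-fold. In the fit without a brightness filter the SE was 0.081 (limma adjusted p = 0.760).

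SOD2, the manganese superoxide dismutase of mitochondria, ran the other way. It stood at 672 and 694 in control and 577 and 465 in treated cells. The controls were close together, both treated arrays were below them, and the treated arrays differed from each other by more than the controls did. In log2 units the controls averaged 9.42 ± 0.032 (SD, n = 2) and the treated samples 9.02 ± 0.22 (SD, n = 2), a difference of -0.40 ± 0.15 (SE) with a 95% interval of -0.73 to -0.067, a 1.32-fold lower level. It did not pass (limma adjusted p = 0.424). On VS-5584 replicate 1 the difference from the control mean was -0.24 and on VS-5584 replicate 2 it was -0.55; the median of all tested genes was also lower on that second array, as given above, and its part in the result was not tested. After cyclic loess the difference was -0.27. SOD2 passed only without VS-5584 replicate 1 (limma adjusted p = 0.00994), the same fit in which 2636 genes passed; over the alternatives with all 4 arrays its adjusted p ran from 0.133 to 0.766.

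**Figure D2:**
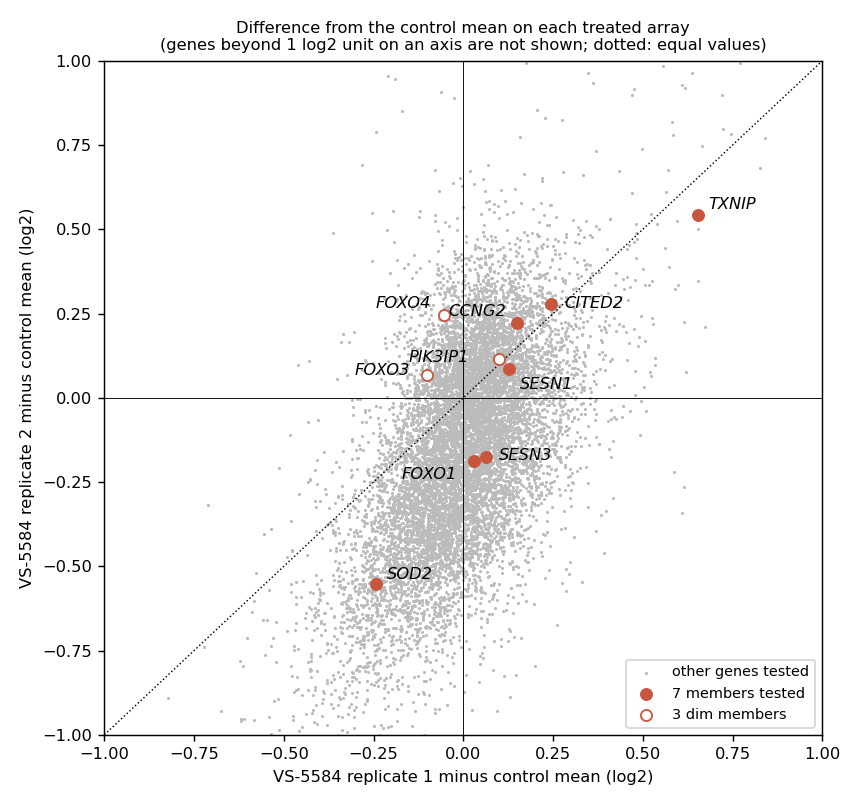
Difference from the control mean in log2 units on VS-5584 replicate 1 (horizontal axis) and VS-5584 replicate 2 (vertical axis) for tested genes (grey), the 7 members tested (filled red) and the 3 dim members (open red); both axes share the control mean. TXNIP lies at 0.65 and 0.54 and SOD2 at -0.24 and -0.55, while FOXO1 and SESN3 lie on opposite sides of 0 on the 2 arrays.

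FOXO1 is the FOXO factor best known in B-lineage cells. Its intensities were 177 and 163 in control and 173 and 149 in treated cells. The groups overlapped, and only VS-5584 replicate 2 lay below both controls. The log2 difference was -0.079 ± 0.14 (SE), with a 95% interval of -0.39 to 0.24 (limma adjusted p = 0.855). It turned positive after cyclic loess (0.050), after quantile normalization (0.041) and without VS-5584 replicate 2 (0.029).

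FOXO3, a factor long studied in growth-factor withdrawal, was dim on its single-gene probe set, at 43.6 and 40.5 in control and 39.1 and 44.1 in treated cells. The treated pair spanned the control pair, and the log2 difference was -0.017, with an SE of 0.099 in the fit without a brightness filter (limma adjusted p = 0.983). A brighter probe set shared with FOXO3B had a log2 difference of 0.23, and its signal cannot be given to either gene. FOXO4, the X-linked member, stood at 44.4 and 49.0 in control and 44.9 and 55.3 in treated cells. Its mean of 48.2 fell just short of the filter. Only VS-5584 replicate 2 exceeded both controls, and the log2 difference was 0.096 with an SE of 0.13 in the same fit (limma adjusted p = 0.885). With 16 subtracted from every intensity, the log2 difference became 0.14 for FOXO4 and 0.21 for PIK3IP1.

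Short stretches around the FOXO core are printed for FOXO4 and PIK3IP1, the other members that held it, and for the 4 other FOXO targets that held it, BCL2L11, YPEL3, MXI1 and TSC22D3; capitals mark the match. All are GRCh38.p14 in RefSeq, written along the gene: FOXO4 from chrX:71095864-71095890 (plus strand), PIK3IP1 from chr22:31292456-31292482 (minus), BCL2L11 from chr2:111120681-111120707 (plus), YPEL3 from chr16:30096197-30096223 (minus), MXI1 from 2 windows, chr10:110210070-110210096 and chr10:110225984-110226010 (plus), and TSC22D3 from chrX:107717193-107717219 (minus).
FOXO4: ccggcgagtgGTAAACAgagacgtcag
PIK3IP1: aaagagaggcTGTTTACcagaacagca
BCL2L11: agttactccgGTAAACAcgccagggac
YPEL3: tgggctcggtGTAAACAagtccaggcg
MXI1, first window: gccacctcgtTGTTTACcccgtgccgg
MXI1, second window: gcggggagagGTAAACAaaccacgcgc
TSC22D3: agtgctgaacTGTTTACagtcccagcc
Where the core lies on the opposite strand it reads TGTTTAC. The matches began at base 24 after the start in FOXO4, base 17 in PIK3IP1 and base 1 in YPEL3, and 223 bases before the start in BCL2L11, 151 and 2 in MXI1 and 147 in TSC22D3. The log2 differences of these 4 targets between treated and control cells were 0.43 for BCL2L11, 0.59 for YPEL3, 0.17 for MXI1, a MYC antagonist, and 0.040 for TSC22D3, a leucine zipper protein. MXI1 and TSC22D3 are outside the naming rule and are given because they hold the core.

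All 10 members had promoter windows in the RefSeq table, 22 in all because several genes have more than 1 start. GTAAACA on either strand was found in 3 of the 10 genes (TXNIP, FOXO4 and PIK3IP1) and in 3 of 22 windows. In the whole table, 3.42% of 35116 windows and 4.19% of 27305 genes held it, as did 4 of the 36 other FOXO targets with a window. The shorter GTAAA, which lies within it, was found in SESN1 as well, giving 4 of 10 genes, against 32.3% of all genes. By window it was 4 of 22, against 28.1%. CACGTG or CACGAG was found in 5 of 10 members (CCNG2, CITED2, FOXO3, SOD2 and TXNIP), against 16% of all genes. By window these hexamers were in 7 of 22, against 13.5%. A gene counts if any of its windows matches, so shares by gene rise with the number of windows. Members with the FOXO core included the gene with the largest difference and 2 dim genes.

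Among 34 upstream regulators of FOXO factors, 31 had a single-gene probe set and 30 were tested. No gene passed the test in either direction, 5 were higher and 25 lower on average, and the median log2 difference was -0.15, beside -0.064 for all genes tested, of which 37.3% were higher. The median of the list was -0.027 on VS-5584 replicate 1 and -0.27 on VS-5584 replicate 2, and -0.068 after cyclic loess. This list was not split by whether a gene restrains or favours FOXO factors. AKT1, the kinase that phosphorylates FOXO proteins, was at 135 and 148 in control and 136 and 110.2 in treated cells, with a log2 difference of -0.21 ± 0.15 (SE). Only VS-5584 replicate 2 lay below both controls. SKP2, a ubiquitin ligase subunit that targets FOXO1 and the CDK inhibitor p27 for destruction, was at 1353 and 1323 in control and 1170.3 and 957 in treated cells, with no overlap. Its log2 difference was -0.34 ± 0.15 (SE; limma adjusted p = 0.469). PHLPP1, a phosphatase outside the naming rule, had the lowest log2 difference of the list, -0.345 ± 0.14 (SE; limma adjusted p = 0.454). Both of its treated values also lay below both controls. SGK1, a kinase related to AKT, differed by -0.062 on the log2 scale, the deubiquitinase USP7 by -0.15, the deacetylase SIRT1 by -0.13 and the ubiquitin ligase MDM2 by 0.0020.

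Of 45 other genes known as FOXO targets, 44 had a single-gene probe set, 17 fell below the filter and 27 were tested. No gene of this list passed in either direction. On average 16 were higher and 11 lower, with a median log2 difference of 0.040. Among all genes tested 37.3% were higher and the median was -0.064. The list was not split by whether FOXO factors raise or lower a gene. Its medians were 0.047 and 0.025 on VS-5584 replicates 1 and 2. After cyclic loess the median was 0.11, and after median centring -0.0056. BCL2L11, the pro-apoptotic protein BIM, stood at 105 and 124 in control and 145 and 164 in treated cells. Both treated arrays exceeded both controls, and its log2 difference was 0.43 ± 0.15 (SE), 1.35-fold (limma adjusted p = 0.393). CDKN1B, the CDK inhibitor p27, was at 493 and 534 in control and 572 and 546 in treated cells. The treated values again lay above the controls, by 0.12 ± 0.13 (log2, SE; limma adjusted p = 0.749).

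RBL2, the pocket protein p130 of resting cells, differed by 0.17 on the log2 scale, with 0.33 on VS-5584 replicate 1 and 0.018 on VS-5584 replicate 2. PINK1, a mitochondrial quality-control kinase, differed by 0.16, GADD45A, a growth-arrest protein, by -0.019, KLF6, a zinc finger factor, by -0.078, and CAT, catalase, by -0.035. CAT was 0.22 above the control mean on one treated array and -0.29 from it on the other. INSR, the insulin receptor, was at 121 and 137 in control and 127 and 88.5 in treated cells, so that the groups overlapped, with a log2 difference of -0.28 ± 0.18 (SE). IRS2 (39.0 to 44.8), BCL6 (27.2 to 28.8), FBXO32 (29.0 to 35.7) and SESN2 (36.2 to 48.6) were below the filter, with intensity ranges over the 4 arrays as given.

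The 25 paralogues and partners of the members included 23 with a single-gene probe set, of which 18 were tested. No gene of this list passed, 5 were higher and 13 lower, and the median log2 difference was -0.15. For all genes tested, 37.3% were higher and the median was -0.064. MLXIP, the MondoA factor that drives TXNIP when glucose is plentiful, was at 103 and 110.4 in control and 97.8 and 79.6 in treated cells, a log2 difference of -0.27 ± 0.15 (SE; limma adjusted p = 0.549). Its treated values lay below both controls, at -0.12 from the control mean on VS-5584 replicate 1 and -0.42 on VS-5584 replicate 2. Any part of MLXIP in the TXNIP difference was not tested. ARRDC4, an arrestin paralogue of TXNIP, was dim, at 40.6 and 37.8 in control and 46.8 and 45.1 in treated cells. These groups did not overlap, and the log2 difference was 0.23, with an SE of 0.085 in the fit without a filter (limma adjusted p = 0.667). TXN, the thioredoxin that TXNIP binds, was at 2069.7 and 1946 in control and 1611 and 2250 in treated cells, so the treated pair spanned the controls.

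SOD1, the cytosolic superoxide dismutase, was at 1665 and 1673 in control and 1413 and 1391 in treated cells. Like SOD2 it was lower on both treated arrays, by a log2 difference of -0.25 ± 0.13 (SE; limma adjusted p = 0.527), but with nearly equal values on the 2 treated arrays. CCNG1, the paralogue of cyclin G2, was at 1412 and 1257 in control and 1439 and 1635 in treated cells. All treated values were above the controls, and its log2 difference was 0.20 ± 0.14 (SE; limma adjusted p = 0.622).

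**Figure D3:**
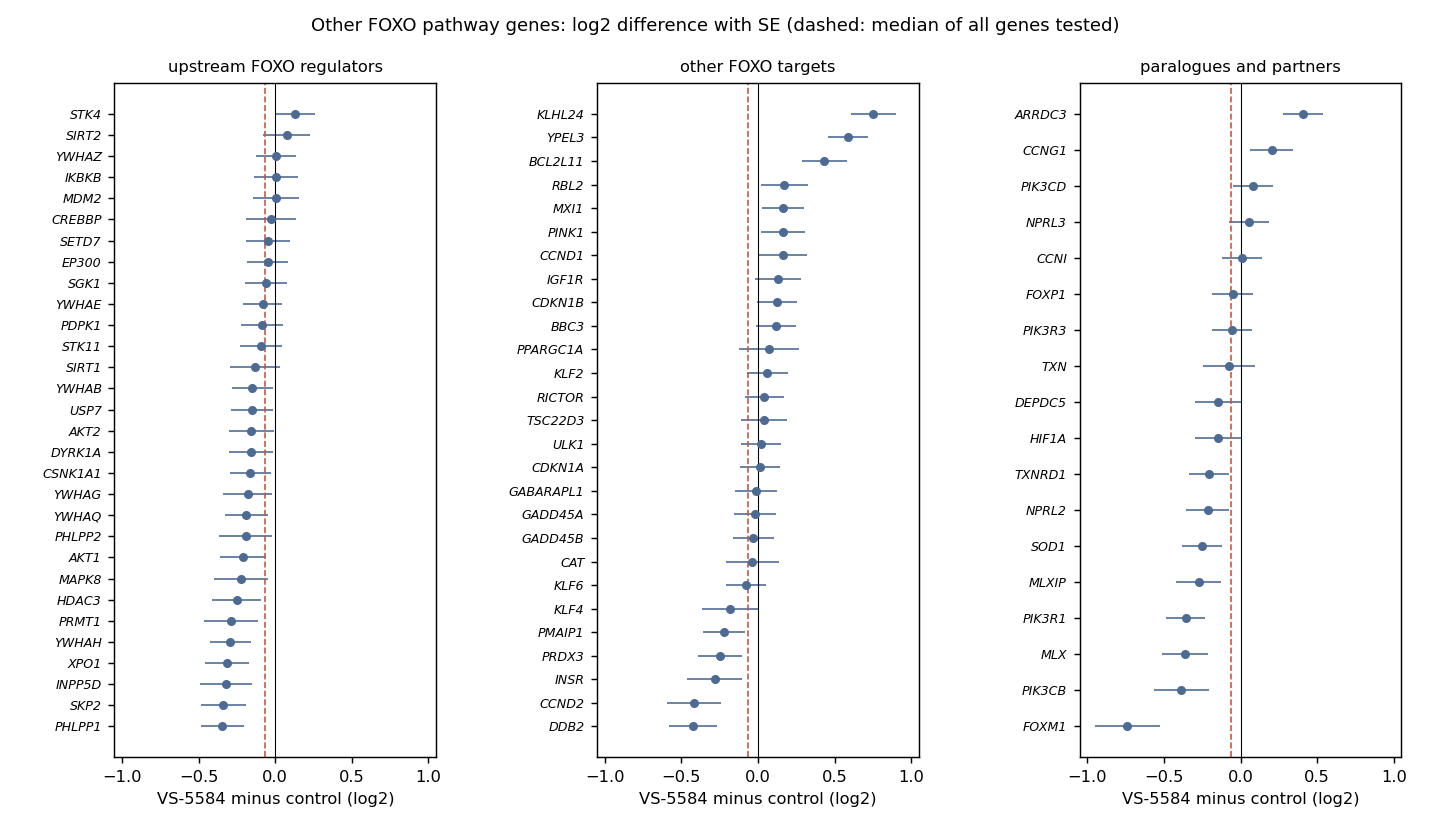
Log2 difference between VS-5584 and control cells (horizontal axis, points) with its SE (bars) for the tested genes of 3 lists, namely upstream FOXO regulators, other FOXO targets, and paralogues and partners; the dashed line is the median of all genes tested, -0.064. Among regulators 25 of 30 points lie below 0, and among other targets 16 of 27 lie above it.

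Across scalings, TXNIP ranged from 0.55 to 0.74 on the log2 scale, CITED2 from 0.22 to 0.39, CCNG2 from 0.14 to 0.23, SESN1 from 0.061 to 0.21 and SOD2 from -0.44 to -0.27, over the alternatives with all 4 arrays. These 5 genes and PIK3IP1 kept their direction in every alternative tried, including those that left out 1 array. Their groups did not overlap, so leaving out 1 array could not change the direction. Other filters and variance models, the block and averaged probe sets left each difference as it was. Only median centring, cyclic loess and quantile normalization could have changed it. FOXO1 and SESN3 changed sign in 3 of 15 alternatives each, FOXO3 in 2 (without VS-5584 replicate 1 and without control replicate 1) and FOXO4 in 1 (without VS-5584 replicate 2).

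**Figure D4:**
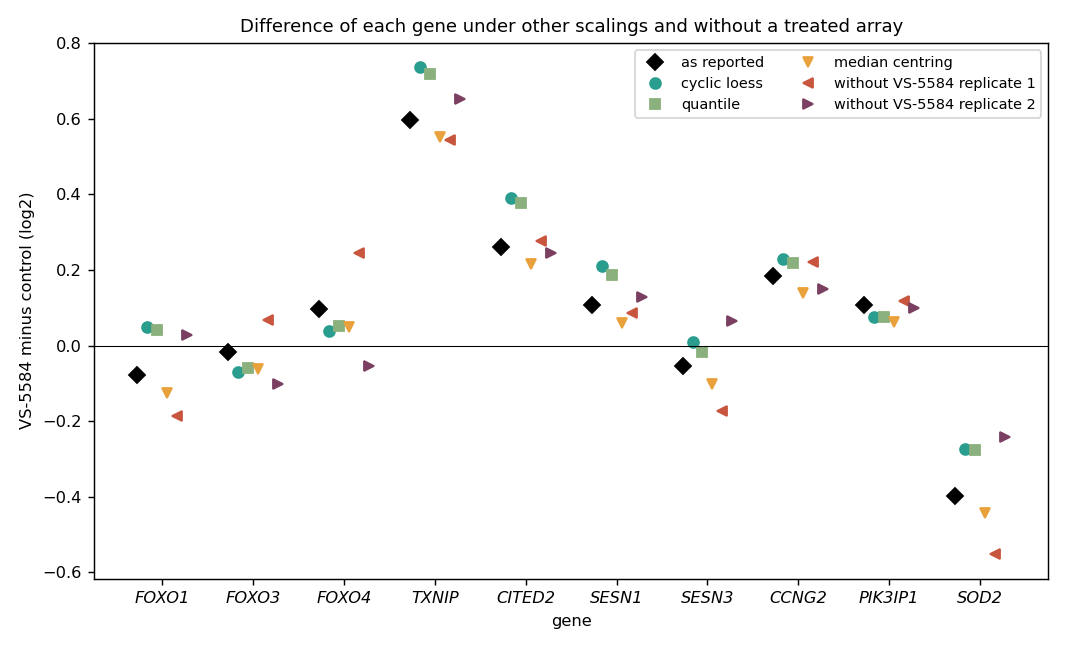
Log2 difference between VS-5584 and control cells (vertical axis) for each of the 10 genes (horizontal axis) as reported, after 3 other scalings, and without either treated array. TXNIP, CITED2, SESN1, CCNG2 and PIK3IP1 lie above 0 and SOD2 below 0 at every setting drawn, whereas FOXO1, FOXO3, FOXO4 and SESN3 lie on both sides.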

How the data were processed

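The table the authors deposited holds linear-scale intensities of 28869 probe sets on 4 arrays. Per the submitters' processing notes they were made with RMA, of unstated version; the step from RMA to these linear intensities, and any added constant, are not given in the sources used here. Intensities were turned into log2 values and not normalized again. Depth has no meaning for arrays; their number, 2 per group, limits the precision.

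The platform annotation gave 1 gene for 19310 probe sets, several for 1752 and none for 7807. Symbols were updated through RefSeq gene IDs (GRCh38.p14; 19279 matched). Each of 18377 genes was represented by its probe set with the highest mean. The 40% dimmest (below 48.9) were left out, and 11026 genes were tested with limma 3.58.1 in R 4.3.3 (lmFit, eBayes), two-sided, adjusted by Benjamini-Hochberg. The code was tested on simulated data.

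The members and lists were chosen with earlier results of these data known. Named were the 10 members, a fixed choice of list genes, and the 3 genes nearest to the member with the largest difference. List genes without a single-gene probe set were not analysed here. Motifs were sought on both strands of RefSeq promoter windows. Alternatives tried were other scalings, filters and variance models, a replicate block, 16 subtracted from every intensity, and leaving out each array. Figures were drawn with matplotlib 3.10.9.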

Additional observations from a re-analysis of the deposited data

How the results depend on the processing

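No gene passed an adjusted p of 0.05 with limma as reported; 16 did after cyclic loess, 2 after quantile normalization, 58 with 60% of genes left out, 80 with an intensity trend, 2 with 16 subtracted and 1 at a threshold of 0.10. Leaving out 1 array gave 2 to 2636. With the replicate number as a block, 432 passed, with 1 member (TXNIP, limma adjusted p = 0.00815), 2 other targets and 1 partner among them; the numbers are only shared labels, and deviations of same-numbered samples correlated at 0.156 over 2 pairs. Members past the threshold numbered 1 after cyclic loess and 0 to 2 without 1 array. Of 105 alternative values for the 7 members tested, 95 kept both direction and side of the threshold, and of 45 for the 3 dim members, 42 kept direction. Many of these could not change direction, because other filters and variance models, the block and averaged probe sets left each difference as it was. FOXO1 reversed to 0.050 after cyclic loess, 0.041 after quantile normalization and 0.029 without VS-5584 replicate 2 (range -0.19 to 0.029 without 1 array). SESN3 reversed to 0.010 after cyclic loess, 0.064 without VS-5584 replicate 2 and 0.059 without control replicate 1 (range -0.17 to 0.064). FOXO3, -0.017 as reported, was 0.068 without VS-5584 replicate 1 and 0.035 without control replicate 1, and FOXO4, 0.096 as reported, was -0.054 without VS-5584 replicate 2. The median of the 10 members, 0.10 as reported, was 0.055 after median centring, 0.062 after cyclic loess and 0.064 after quantile normalization, and 0.068 to 0.10 without 1 array. For upstream regulators, leaving out 1 array gave medians of -0.27 to -0.027 and 0 to 9 genes past the threshold. For other targets the median was -0.0056 after median centring, 0.11 after cyclic loess, 0.089 after quantile normalization and 0.0091 to 0.047 without 1 array; 17 were lower with no filter, 1 passed after cyclic loess, 1 with 60% of genes left out and 0 to 7 without 1 array. For partners the median was -0.054 after cyclic loess, -0.057 with no filter or 20% of genes left out, and -0.25 to -0.077 without 1 array, with 0 to 4 genes past the threshold. The E-box hexamers were found in 5 members. The causes were not tested.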

Other observations

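The genes in this paragraph, apart from YPEL3, lie outside the naming rule and were chosen after their values were seen. Besides BCL2L11, the other FOXO targets with an unadjusted p under 0.05 were KLHL24 and YPEL3, which were higher, and DDB2 and CCND2, which were lower. KLHL24, a ubiquitin ligase adaptor, stood at 135 and 111 in control and 217 and 196 in treated cells, a log2 difference of 0.75 ± 0.15 (SE; limma adjusted p = 0.247). YPEL3, linked to growth arrest, stood at 65.1 and 62.9 in control and 94.7 and 97.8 in treated cells, a log2 difference of 0.59 ± 0.13 (SE; limma adjusted p = 0.254). DDB2, a DNA damage sensor, stood at 155 and 162 in control and 135 and 103 in treated cells, a log2 difference of -0.42 ± 0.16 (SE; limma adjusted p = 0.424). CCND2, a D-type cyclin, stood at 648 and 607 in control and 564 and 392 in treated cells, a log2 difference of -0.41 ± 0.18 (SE; limma adjusted p = 0.469). In all 4 the groups did not overlap, as in 17.6% of all genes with treated cells higher and 21.4% with treated cells lower. These 4 were picked by their p on the same arrays, so the separation adds no support. ARRDC3, another arrestin paralogue of TXNIP, differed by 0.41 ± 0.13 (log2, SE; limma adjusted p = 0.375), and PIK3R1, a regulatory subunit of PI3 kinase, by -0.36 ± 0.13 (SE; limma adjusted p = 0.417). FOXM1, a forkhead factor of dividing cells, differed by -0.74 ± 0.21 (SE; limma adjusted p = 0.323), with -0.38 on VS-5584 replicate 1 and -1.10 on VS-5584 replicate 2. MLX, also of the partner list, differed by -0.36 ± 0.15 (SE; limma adjusted p = 0.453). ARRDC3, PIK3R1, FOXM1 and MLX were the 4 genes of that list with an unadjusted limma p under 0.05, 1 higher and 3 lower.

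A further probe set, which the platform annotation assigns to FOXO3 and FOXO3B together, was not used because its signal cannot be given to either gene. It was at 670.4 and 782 in control and 896 and 805 in treated cells, a log2 difference of 0.23. Both treated values lay above both controls, unlike those of the dim probe set assigned to FOXO3 alone.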
